A study of Rattus norvegicus with 12 samples.

Results

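The genes described here encode the nuclear subunits of the mitochondrial respiratory chain and ATP synthase, measured in rat liver. Members were all probe sets with 1 annotated symbol that begins with Ndufa, Ndufb, Ndufc, Ndufs, Ndufv, Uqcr, Cox4 to Cox8 or Atp5, or that is Sdha, Sdhb, Sdhc, Sdhd or Cyc1. A probe set is the group of short probes that reads 1 transcript on an Affymetrix array. This rule found 97 probe sets of 87 genes among 31042 probe sets other than controls. Complex I had 39 of them, complex II 5, complex III 9, complex IV 17 and complex V 20. The other 7 read genes named Ndufaf, which are assembly factors and not subunits. A further 7 probe sets that fit the rule carried several symbols and were left out. They belong to Atp5mc1, Atp5mc2, Cox7a2, Cox5a, Uqcrb, Ndufs5 and Ndufa10.

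The respiratory chain lies in the inner mitochondrial membrane. Complex I takes electrons from NADH and complex II from succinate, and ubiquinone carries them to complex III. Cytochrome c passes them on to complex IV, which reduces oxygen, and the proton gradient built on the way drives ATP synthase, complex V. Most subunits are encoded in the nucleus and imported, while a small catalytic set is encoded in mitochondrial DNA. Hepatocytes are rich in mitochondria and depend on the chain for the ATP that glucose production and urea synthesis use.

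Liver RNA of 12 rats was hybridised, 1 array per animal and 3 animals per group. Germ-free Sprague Dawley rats (animals 1, 3 and 4) were set against conventional ones (6, 7 and 8). Han Wistar rats given an antibiotic (13, 14 and 15) were set against untreated Han Wistar controls (1, 2 and 3). The antibiotic was streptomycin with penicillin in the drinking water for 8 days, named at 4 and 2 mg/ml beside a 10X stock. Whether these are the concentrations in the stock or in the bottle is not settled by the labels. Age, sex, diet and time of collection are not stated either, so any difference in these cannot be told apart from the germ-free state. The strains were separate experiments and were never compared directly.

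Values are linear signals. Fold changes were taken as log2 after adding 16 to each signal, which understates the change of dim probe sets. Levels of different probe sets were not set against each other. A probe set was tested if its mean signal over the 12 arrays reached 19.67, the median of all, which kept 15523 probe sets and 87 members of 80 genes. The 10 members under this value included Cox4i2, Cox6a2, Cox6b2, Cox7a1, Cox7b2, Cox8b and Ndufa4l2. The tested members were bright: 54 of 87 (62.1%) had a mean signal of 1000 or more, against 6.84% of all probe sets tested. Hepatocyte markers were high in every array, with all 9 listed genes on the array above the filter. A difference was called when limma, a moderated linear model, gave an adjusted p under 0.05 over all 15523 probe sets.

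In germ-free livers, of 87 members 1 rose and 4 fell, which is 5.75% of them, while 12.2% of all probe sets tested were called. Of the 54 members with a mean signal of 1000 or more, 1 rose and 1 fell. Of all 1061 such probe sets, 87 rose and 119 fell. Ndufa1 of complex I rose. Ndufv1 and Ndufs3, of the catalytic arm of complex I, and Atp5po and Atp5if1, of complex V, fell. The count of 5 was 2 without germ-free animal 3 (2.3% against 6.48% of all). It was 3 when germ-free animal 4, conventional animal 7, conventional animal 8 or control animal 1 was left out (3.45% against 8.26% to 10.95%). It was 12 under median centring (1 higher and 11 lower), 13.8% of members against 13.3% of all, and 1 with the actin covariate, 1.15% against 5.51%. Among all probe sets 6.86% rose and 5.39% fell, 1065 and 836 of them. That split was 867 and 944 under quantile normalization and 654 and 1407 under median centring. The median log2 fold change was -0.10 over the members and 0.05 over all probe sets, and 61 of 87 members (70.1%) lay below 0, against 42.1% of all. In bulk tissue fewer cells of a type and less RNA per cell cannot be told apart.

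**Figure D1:**
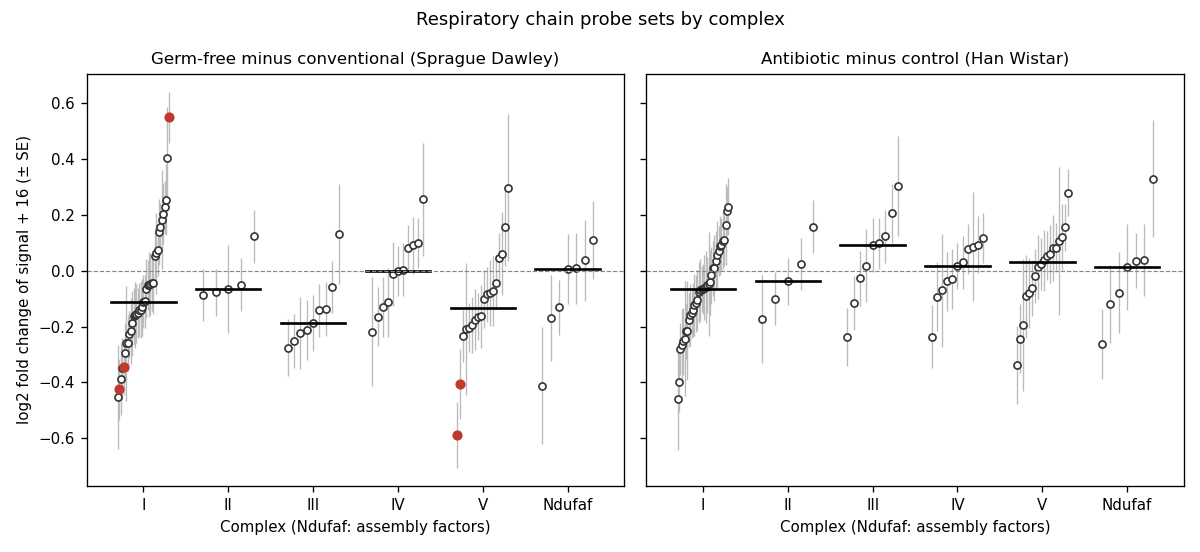
Log2 fold change of each tested member with its standard error, by complex, for germ-free minus conventional livers (left) and antibiotic minus control livers (right); filled red points passed limma and black lines are medians. The 5 filled points lie in complexes I and V of the germ-free comparison, and the medians of the right panel lie between -0.06 and 0.09.

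Ndufa1, a small membrane subunit needed for the assembly of complex I, was the member that rose. Its signal was 3119, 2894 and 3218 in germ-free animals 1, 3 and 4, and 2048, 2094 and 2151 in conventional animals 6, 7 and 8. Every germ-free animal lay above every conventional one. The log2 fold change was 0.55 ± 0.09 (SE; adjusted p = 0.00153), with means of 3077 ± 166 and 2098 ± 51.5 (SD, n = 3). The gene passed in all 24 alternatives run, with adjusted p between 0.00055 and 0.0139. In Han Wistar livers its signal was 2121, 2278 and 2338 in controls and 2251, 1938 and 2262 after the antibiotic, so those groups overlapped (log2 -0.06 ± 0.09).

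Atp5po encodes the OSCP subunit, which joins the F1 head of ATP synthase to its peripheral stalk. Its signal was 1303, 1185 and 1294 in germ-free animals and 1592, 1896 and 2272 in conventional ones. The germ-free values lay close together and under all 3 conventional values, which were spread. The gene fell by 0.59 ± 0.12 on the log2 scale (adjusted p = 0.00532). With the beta-actin 3' to 5' ratio as a covariate it no longer passed (adjusted p = 0.0681), while in the other 23 alternatives it did. Antibiotic-treated and control livers overlapped at 1202, 1319 and 1208 against 1150, 1249 and 1123.

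Ndufv1, the subunit that binds FMN and accepts electrons from NADH, had signals of 742, 735 and 731 in germ-free livers. The conventional livers had 882, 997 and 1117, so the groups did not overlap, and the germ-free animals differed little among themselves. The gene fell by 0.43 ± 0.11 (adjusted p = 0.021). The call was lost on removal of germ-free animal 3 (0.068), germ-free animal 4 (0.0577), conventional animal 7 (0.0594) or conventional animal 8 (0.0747). It was also lost in a fit on the 6 Sprague Dawley arrays alone (0.0558) and with the actin covariate (0.13).

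Ndufs3, a core subunit of the arm that carries electrons towards ubiquinone, read 782, 763 and 852 in germ-free animals. In conventional animals it read 1006, 1020 and 1028, a narrow band above all germ-free values. The gene fell by 0.34 ± 0.10 (adjusted p = 0.0361), a call lost in 11 of 24 alternatives. Removing germ-free animal 1 (0.069), germ-free animal 3 (0.127), any of conventional animals 6 (0.0593), 7 (0.0879) and 8 (0.0761), or control animal 1 (0.0512) was enough.

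Atp5if1, the inhibitor that stops ATP synthase from running backwards, had the smallest margin. Its brightest probe set read 151, 149 and 122 against 175, 198 and 200.5, with no overlap. This probe set fell by 0.41 ± 0.12 (adjusted p = 0.0485), and 13 of 24 alternatives ended the call. Removal of any 1 of 8 animals did so: germ-free 3 (0.0862) and 4 (0.168), conventional 7 (0.127) and 8 (0.116), control 1 (0.0596) and 2 (0.0648), and antibiotic 14 (0.0549) and 15 (0.0598). The other probe sets of the gene, both dim with mean signals of 22.2 and 24.2, had log2 values of -0.21 and 0.30, so they do not share a direction.

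**Figure D2:**
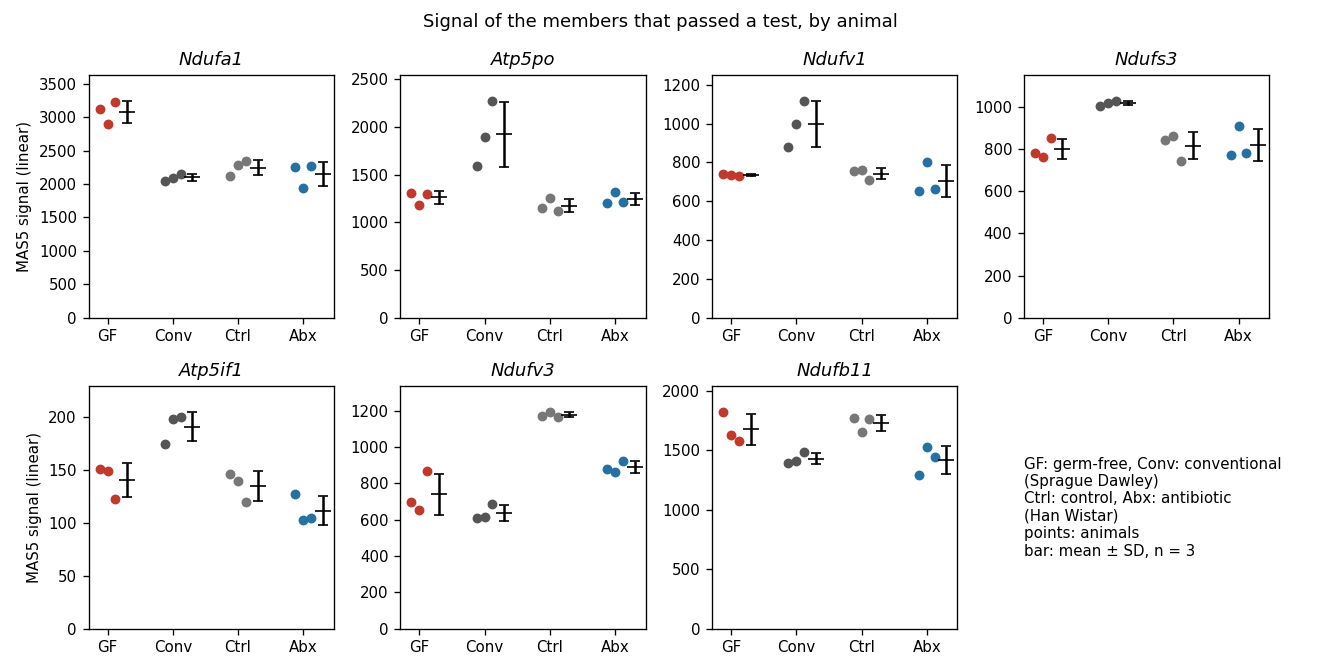
Linear signal (y axis, from 0) of each animal in the 4 groups for the 7 genes with a member that passed a test, with the mean and SD (n = 3) beside the points. Germ-free Ndufa1 values lie above the other groups, and germ-free Atp5po, Ndufv1, Ndufs3 and Atp5if1 values lie below the conventional ones.

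Promoters of the 7 genes with a member called here or in the difference between the comparisons below are shown because nuclear respiratory genes are known targets of the factors NRF1 and GABPA, an ETS protein. Of the 87 member genes, 78 had a promoter in RefSeq's table for GRCr8, and the 250 bases before the start were searched on both strands. The NRF1 core, GCGCA followed by any base and GCGC, was in 12 promoters (15.4%), against 4.17% of all 27457 promoters and 7.66% of 11701 genes on the array. The ETS core CCGGAAG was in 21 (26.9%), against 7.74% and 12.9%. The core bound by ERR receptors, TCAAGGTCA, was in 1, that of Atp5mc3 (1.3%), against 0.37% and 0.19%. None of these motifs contains another. In the lines below the last base is next to the start, and capitals mark a motif on either strand. The ETS core of Ndufa1 begins 171 bases before the start (window chrX:121293556-121293736, minus strand). The NRF1 core of Atp5po begins 59 bases before it (chr11:44657484-44657563, minus strand). That of Ndufv3 begins at 39 (chr20:9613706-9613785, plus strand). The other 4 promoters hold no match in the 250 bases searched, of which a window is shown: Ndufv1 (chr1:210734892-210734971), Ndufs3 (chr3:97339655-97339734) and Atp5if1 (chr5:150026678-150026757), on the minus strand, and Ndufb11 (chrX:4126237-4126316), on the plus strand. Thus 3 of the 7 hold a motif, and 33 of the 78 member promoters hold at least 1, a similar share.
Ndufa1: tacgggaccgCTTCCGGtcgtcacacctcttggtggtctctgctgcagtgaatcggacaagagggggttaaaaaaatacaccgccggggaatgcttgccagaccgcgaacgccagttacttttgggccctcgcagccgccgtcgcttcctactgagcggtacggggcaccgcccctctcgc
Atp5po: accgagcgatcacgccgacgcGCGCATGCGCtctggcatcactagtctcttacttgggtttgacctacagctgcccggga
Ndufv3: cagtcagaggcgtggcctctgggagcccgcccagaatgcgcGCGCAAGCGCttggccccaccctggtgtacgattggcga
Ndufv1: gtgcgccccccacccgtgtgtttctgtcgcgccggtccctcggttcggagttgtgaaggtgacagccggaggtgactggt
Ndufs3: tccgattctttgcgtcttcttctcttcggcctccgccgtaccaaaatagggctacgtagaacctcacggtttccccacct
Atp5if1: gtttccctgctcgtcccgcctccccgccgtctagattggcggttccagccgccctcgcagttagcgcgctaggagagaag
Ndufb11: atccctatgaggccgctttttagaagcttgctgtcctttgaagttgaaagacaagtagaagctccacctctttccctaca

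In complex I, 37 probe sets were tested in germ-free livers; 1 rose, 2 fell and 34 did not pass (median -0.11). The 6 catalytic core genes tested all had values below 0, from -0.14 to -0.43 (median -0.18), and 2 of them fell. The iron-sulphur subunit Ndufs1 read 604, 650 and 713 against 715, 731 and 759, without overlap but not called (-0.16 ± 0.10, adjusted p = 0.324). Ndufs7, Ndufs8 and Ndufv2, which also hold iron-sulphur clusters, had overlapping groups and values of -0.19, -0.14 and -0.14. The lowest value in the complex belonged to Ndufs4, an accessory subunit of the same arm: 137, 143 and 207 against 209, 227 and 236 (-0.45 ± 0.19, adjusted p = 0.128). Its germ-free animal 4 nearly reached the conventional range. The 31 accessory probe sets had a median of -0.05, with 1 higher call and 0 lower. Ndufb5 (-0.35, adjusted p = 0.0532) and Ndufa9 (-0.39, adjusted p = 0.0651) lay just outside the threshold, and Ndufs3 (0.0361) and Atp5if1 (0.0485) just inside it. Ndufa4, counted by its name here although its protein is now placed in complex IV, had a value of 0.07. Its paralog Ndufa4l2 lay at 10.2 to 25.1 in every array.

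Complex II, the succinate dehydrogenase, had 0 of 5 probe sets called in germ-free livers (median -0.07). The groups of Sdha, Sdhb, Sdhc and Sdhd all overlapped. Sdha, the flavoprotein, read 1472, 1595 and 1680 against 1575, 1469 and 1317 (0.12 ± 0.10), and Sdhc, a membrane anchor, had the lowest value at -0.09.

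Complex III had 0 of 9 called, with a median of -0.19 and 8 of 9 values below 0. That median was -0.095 without germ-free animal 3, -0.12 without conventional animal 8, -0.26 without germ-free animal 4, -0.29 under median centring and -0.11 with the actin covariate. Uqcrfs1, the Rieske iron-sulphur protein, read 1922, 1858 and 2142 in germ-free and 2200, 2230 and 2641 in conventional livers, without overlap (-0.25 ± 0.10, adjusted p = 0.109). Cyc1, cytochrome c1, read 1479, 1530 and 1765 against 1808, 1639 and 2103, with germ-free animal 4 inside the conventional range (-0.21). The core proteins Uqcrc1 and Uqcrc2 had values of -0.14 and -0.22, and the small subunit Uqcrq had -0.28. A second, dim probe set of Uqcrc2 had 0.13.

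Complex IV had 0 of 11 called, and 0 of its tested probe sets had groups that did not overlap (median -0.0023). Cox4i1, the regulatory subunit that binds ATP, read 4119, 3823 and 4158 against 3726, 4031 and 4380 (-0.0023 ± 0.09). Cox5b was at -0.17, Cox6a1 at 0.08, Cox6b1 at -0.01, Cox8a at 0.10 and Cox7a2l, which joins complexes III and IV into supercomplexes, at -0.13. The single-symbol probe set of Cox5a was dim, at 69.9 to 151 in all arrays, and had a value of -0.22. The highest value, 0.26, belonged to the probe set of the pseudogene Cox6c-ps1, which may also read Cox6c.

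Complex V had 2 of 18 called, both lower, with 14 of 18 values below 0 (median -0.13). The 5 genes of the F1 head lay between -0.10 and -0.23 with 0 called. Atp5f1b, the catalytic beta subunit, read 3364, 3567 and 4072 in germ-free livers and 4134, 4018 and 4149 in conventional ones (-0.16 ± 0.09, adjusted p = 0.228). Germ-free animal 4 again lay within the conventional range. Atp5f1a, the alpha subunit, had -0.18 and overlapped, and Atp5mc3, which encodes the proton-carrying c ring, had -0.04. Of the Ndufaf assembly factors, 0 of 7 probe sets passed (median 0.0049).

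Groups did not overlap for 19 of 87 members (21.8%; 3 higher and 16 lower), against 29.1% of all probe sets tested (16.9% higher and 12.1% lower). The mean level of all 87 members, set to 0 in the conventional group, was -0.122, -0.145 and 0.025 in germ-free animals 1, 3 and 4. In conventional animals 6, 7 and 8 it was -0.067, -0.022 and 0.089. Thus the groups overlapped for the chain as a whole, because germ-free animal 4 lay above conventional animals 6 and 7. Members also varied together between animals once group means were removed. The median correlation of pairs over the 12 arrays was 0.303 within a complex and 0.348 between complexes. It was 0.007 for a regular subset of all probe sets and 0.186 for those with a signal of 1000 or more. These pairs share their arrays and their scaling, and the values are descriptions.

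**Figure D3:**
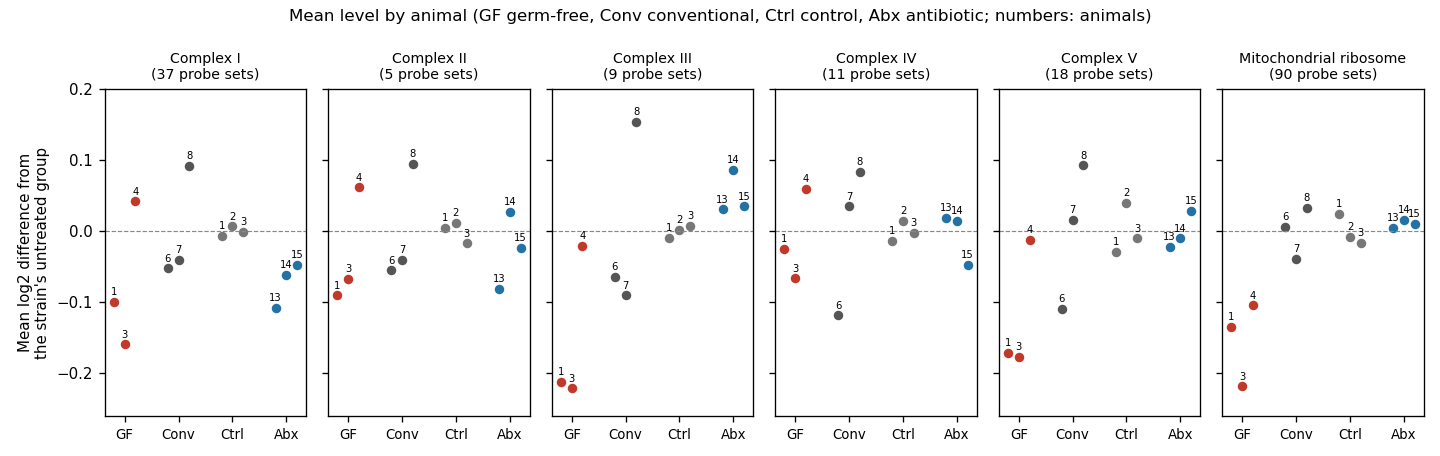
Mean log2 difference of a complex's tested probe sets from the untreated group of the same strain (y axis), for each animal, with the mitochondrial ribosome at the right. Germ-free animal 4 and conventional animal 8 are the highest of their groups in all 5 complexes, and the germ-free and conventional groups overlap in each of them.

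The beta-actin 3' to 5' signal ratio, a sign of RNA quality, averaged 4.39 ± 0.762 (SD, n = 3) in germ-free livers. In conventional livers it averaged 5.37 ± 0.839, and the exact permutation test gave p = 0.2 (two-sided), with 0.1 the smallest p that 3 against 3 animals allow. Endothelial markers, 8 of 10 on the array, summed to 2342 to 3022 in germ-free and 1299 to 1572 in conventional livers. Macrophage markers, 7 of 10 on the array, summed to 1661 to 2281 against 2178 to 3225. Hepatocyte markers, 9 of 10 on the array, summed to 82781 to 92154 against 75218 to 83753, which overlap. The part of these cells in the members' values was not tested.

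In antibiotic-treated livers 0 of 87 members passed limma, where 0.0193% of all probe sets tested, 3 in number, were called (0.00644% higher and 0.0129% lower). At an unadjusted p under 0.05 there were 8 members (9.2%), against 9.97% of all probe sets. Groups did not overlap for 22 members (25.3%), 11 higher and 11 lower, against 18.4% of all (9.57% higher and 8.78% lower). Among probe sets with a mean signal of 1000 or more, groups were apart for 25.9% of the 54 members and 34.0% of all. Their shares with an unadjusted p under 0.05 were 9.3% and 27.7%. The medians by complex were -0.06 for I, -0.04 for II, 0.09 for III, 0.02 for IV and 0.03 for V. Those of IV (-0.098) and V (-0.078) lay below 0 under quantile normalization, where that of III was 0.0084. Over all bright probe sets, those with a mean signal of 1000 or more, the median was 0.12.

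The smallest unadjusted p among the members belonged to Ndufv3, a small accessory subunit near the NADH site of complex I. Its bright probe set read 882, 864 and 924 after the antibiotic and 1174, 1195 and 1166 in controls. The groups were well apart, but the change did not pass (-0.40 ± 0.11, adjusted p = 0.211 by limma). Atp5mc3 read 3778, 3639 and 3829 against 3037, 2946 and 3283, also apart (0.28 ± 0.09, adjusted p = 0.271).

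Other values at the ends of each complex did not pass either. In complex I they were Ndufb8 at -0.46 and Ndufb1 at 0.23. Complex II ran from -0.17 to 0.16, which are the 2 probe sets of Sdhd, so this gene has no settled direction. Complex III ran from Uqcrq at -0.24 to the dim probe set of Uqcrc2 at 0.30, complex IV from Cox6b1 at -0.24 to Cox4i1 at 0.12, and complex V from Atp5me at -0.34 to Atp5mc3. Of the catalytic core of complex I, 5 of 6 genes lay below 0, with Ndufs8 lowest (-0.21, groups apart) and Ndufs3 at 0.0081.

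By animal, the mean level of complex I was -0.108, -0.061 and -0.047 in antibiotic animals 13, 14 and 15, under the control range of -0.006 to 0.007. Complex III lay between 0.031 and 0.087, above the control range of -0.009 to 0.008. These are small shifts of opposite direction on the signals as deposited, and complexes II, IV and V overlapped between the groups. Over all probe sets with a mean signal of 1000 or more, animals 13, 14 and 15 lay at 0.176, 0.042 and 0.132. Controls ranged there from -0.038 to 0.062. The median of complex III depended on the scaling, as its value under quantile normalization given above shows. The brightest signal on the array was 6640 to 7903 in controls and 8370 to 10666 in antibiotic-treated livers. It was also higher in germ-free livers, at 10635 to 12069 against 9471 to 10456 in conventional ones. Its part in the members' values was not tested.

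Several subunits of complex IV have isoforms of heart and skeletal muscle, and those on the array lay under the filter. Cox6a2 lay at 0.5 to 8.6 over all arrays, Cox7a1 at 1.7 to 17.0 and Cox8b at 0.9 to 7.3, while Cox6a1 and Cox8a passed the filter, with signals of at least 1558 and 2377. Cox4i2, an isoform of lung, lay at 4.0 to 18.4 and Cox6b2, of testis, at 0.6 to 11.5. Cox6a2 read 4.3, 4.4 and 8.6 in Han Wistar controls and 1.9, 2.2 and 1.6 after the antibiotic. Of 12 muscle markers on the array 1 reached the filter, Myh1, and its 5 probe sets carried nearly all of the summed list, which ran from 7554 to 8811 in controls and 5362 to 7207 after the antibiotic. Their symbol is that of the platform annotation, which may be wrong, and whether they read Myh1 was not tested. The other 11 genes had 12 probe sets, all under the filter, which summed to 171 to 316 in controls and 82.7 to 93.6 after the antibiotic. Of these, 6 were lower after the antibiotic without overlap, Acta1 among them, 1 was higher (Pvalb) and 5 overlapped. Of all probe sets tested 8.78% were lower and 9.57% higher without overlap. The highest mean signal of the 12 was 18.6, so none of them was tested, and values this low are unsure. The sum of the list therefore does not measure these 11 genes, and the part of muscle RNA in the value of Cox6a2 was not tested.

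The comparisons were then set against each other in 1 model, germ-free minus conventional less antibiotic minus control. Of 87 members 4 passed (4.6%), 3 higher and 1 lower, against 5.03% of all probe sets, 2.47% higher and 2.56% lower. At an unadjusted p under 0.05 there were 17 members (19.5%), against 20% of all. With a mean signal of 1000 or more, these shares were 20.4% of 54 members and 32.8% of all 1061 such probe sets. Of those members 2 passed as higher and 1 as lower, and of all such probe sets 27 and 86. With 1 animal left out the count of 4 was 1 to 5: it was 1 or 2 on removal of any Han Wistar animal, and on that of germ-free animals 3 and 4 and conventional animals 6 and 7, each in turn. Strain and experiment go with this difference and cannot be told apart from the kind of microbial depletion.

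Ndufa1 had the clearest difference (0.61, adjusted p = 0.0145), and it passed in all 23 alternatives, at most at 0.0499. That of Atp5po was -0.67 (adjusted p = 0.0353). Both genes were called in germ-free livers, with overlapping groups after the antibiotic. The other 2 were called in neither comparison alone. Ndufv3 had 0.20 in germ-free and -0.40 in antibiotic-treated livers (difference 0.60, adjusted p = 0.0382). In the Sprague Dawley groups it read 698, 653 and 869 against 609, 614 and 685, which overlap.

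Ndufb11, a membrane subunit of complex I, read 1824, 1625 and 1580 in germ-free livers and 1393, 1409 and 1484 in conventional ones. After the antibiotic it read 1293, 1526 and 1443, against 1767, 1650 and 1762 in controls. Germ-free values lay above and antibiotic values below their own controls, without overlap (0.23 and -0.28; difference 0.51, adjusted p = 0.0431). Ndufa1 and Ndufb11 lie on chromosome X, as does Cox7b, a subunit of complex IV with values of 0.0039 and 0.03. The calls of Atp5po, Ndufv3 and Ndufb11 were lost in 13, 13 and 14 of 23 alternatives. For Atp5po these included the removal, each in turn, of germ-free animals 3 (0.0875) and 4 (0.0564), conventional animals 7 (0.0668) and 8 (0.0527), any control (0.0771, 0.055 and 0.0737 for animals 1, 2 and 3) or antibiotic animal (0.0555, 0.0742 and 0.0586 for 13, 14 and 15). Ndufv3 lost its call on removal of germ-free animal 4 (0.0688), conventional animal 6 (0.0655) or 7 (0.08), any control (0.078, 0.0887 and 0.0689) or any antibiotic animal (0.0732, 0.0763 and 0.0604). Ndufb11 lost it on removal of any germ-free animal (0.0686, 0.0785 and 0.0519), conventional animal 6 (0.0712) or 7 (0.0857), any control (0.1, 0.0728 and 0.0847) or antibiotic animal 13 (0.0907) or 15 (0.0772).

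**Figure D4:**
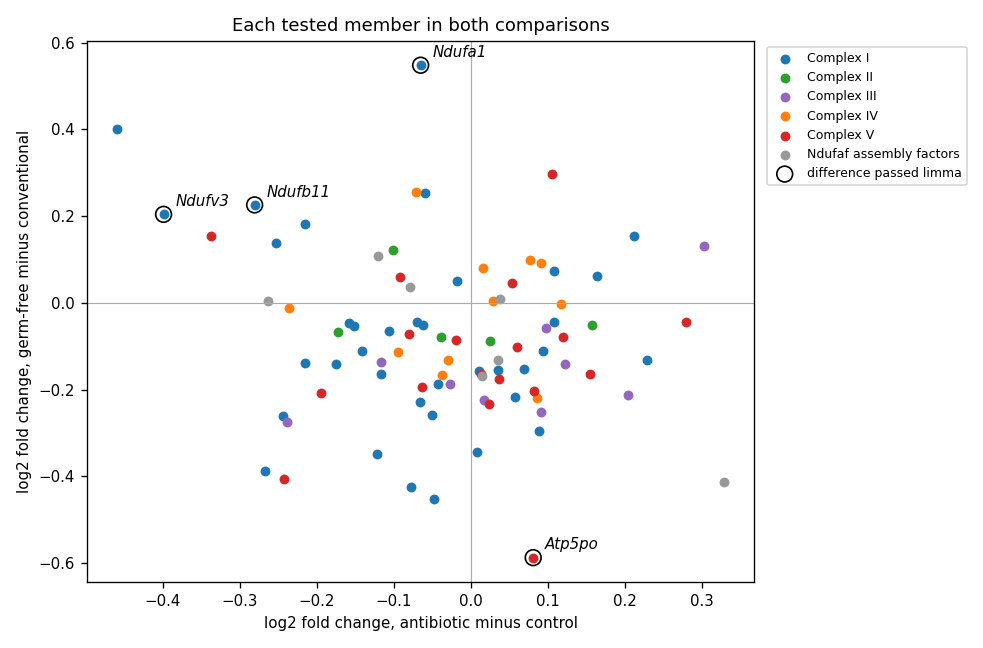
Log2 fold change of each tested member in antibiotic minus control livers (x axis) and in germ-free minus conventional livers (y axis), coloured by complex. The 4 circled members passed limma for the difference: Ndufa1, Ndufb11 and Ndufv3 lie above 0 on the y axis and below 0 on the x axis, and Atp5po lies in the opposite corner.

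Of the 87 genes, 9 had several member probe sets, and for 6 of them several were tested. Those of 3 genes agreed in sign in germ-free livers (Ndufa7, Ndufv3 and Sdhd) and those of 2 in antibiotic-treated livers (Ndufv3 and Uqcrc2). Calls differed within Atp5if1 in germ-free livers and within 0 genes after the antibiotic. For the difference between the comparisons, Ndufv3 was called by its bright probe set alone. Its dim probe set, with a mean signal of 68.3, had a difference of 0.40 and did not pass (adjusted p = 0.415 by limma).

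Genes that feed, build or surround the chain were counted in the same fit, in which 5.39% of all probe sets fell and 6.86% rose in germ-free livers. Under median centring 9.06% of all fell there. With the main scaling, the TCA cycle and pyruvate dehydrogenase list had 6 of 30 probe sets lower (20%) and 0 higher (median -0.21), and 10 lower under median centring. Pdha1, the E1 alpha subunit of pyruvate dehydrogenase, read 476, 489 and 517 against 810, 847 and 843, a wide gap between the groups (-0.74 ± 0.11, adjusted p = 0.000734). Citrate synthase, Cs, was at -0.47, the phosphatase gene Pdp2 at -0.62 and Idh3a at -0.56, and all passed. Further probe sets of Cs (-0.71) and Pdp2 (-0.57) passed too, so the 6 calls belong to these named genes alone. Among cofactors and carriers 5 of 27 fell (18.5%) and 1 rose (median -0.21), and 10 were lower and 0 higher under median centring. Coq5 (-0.92) and Coq3 (-0.65), methyltransferases of ubiquinone synthesis, fell, as did Etfa (-0.36) and Etfb (-0.41), the electron transfer flavoprotein that feeds ubiquinone. The gene that rose was Coq8a, a call lost under median centring.

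The mitochondrial ribosome, which makes the subunits encoded in mitochondrial DNA, had 8 of 90 probe sets lower (8.89%) and 0 higher (median -0.16), and 21 lower under median centring. Mrps34 fell by 0.70, Mrpl12 by 0.68, Mrpl45 by 0.55 and Mrpl2 by 0.46. Mrpl51 was counted more than once among the 8, with probe sets at -0.39 and -0.37. Its mean level by animal was -0.134, -0.218 and -0.104 in germ-free and 0.006, -0.039 and 0.033 in conventional livers, without overlap. Of 47 probe sets of assembly factors, 7 of which are the Ndufaf members, 2 fell and 1 rose (median -0.10), and 5 were lower and 0 higher under median centring. Oxa1l, which inserts proteins into the inner membrane, fell by 0.41, while Lrpprc, which stabilises mitochondrial mRNA, was called in opposite directions by 2 probe sets. In the list of mitochondrial biogenesis, 3 of 28 rose and 2 fell (median 0.03), but 1 was higher and 5 were lower under median centring (median -0.082), and the median was -0.045 under quantile normalization. Polg, the mitochondrial DNA polymerase, fell by 0.54 and Tfb2m, a transcription factor of mitochondrial DNA, by 0.51. Polg2, which encodes another subunit of that polymerase, was called in the other direction and rose by 0.74. Mterf3, a repressor of mitochondrial transcription, rose by 0.45 and Gabpb1, a partner of GABPA, by 0.56. Cytosolic ribosomal proteins, another set of abundant transcripts, had 1 of 47 lower and 0 higher (median -0.01), and 4 lower under median centring.

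After the antibiotic 0 probe sets of any of these lists passed limma. Of the 47 probe sets of cytosolic ribosomal proteins 28 had an unadjusted p under 0.05 (median 0.21, or 0.091 under quantile normalization), against 9.97% of all probe sets and 27.7% of those with a mean signal of 1000 or more. For the mitochondrial ribosome that count was 6 of 90, for assembly factors 4 of 47, for biogenesis 2 of 28, and for the TCA cycle and cofactor lists 1 each. The complex IV subunits encoded in mitochondrial DNA, read by probe sets named COX1 and COX2, lay apart from controls. COX1 read 9270, 7436 and 8210 against 5779, 5600 and 6884 (0.45 ± 0.11, adjusted p = 0.172). COX2 read 8636, 6760 and 7429 against 5604, 5461 and 6383 (0.38 ± 0.10, adjusted p = 0.192). The median of these 2 probe sets was 0.41 on the signals as deposited and 0.017 under quantile normalization. Bright signals were higher in the same livers: hepatocyte markers summed to 47705 to 57316 in controls and 63604 to 78081 after the antibiotic, and the brightest signal of the array was also higher, as given above. Their part in these values was not tested.

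**Figure D5:**
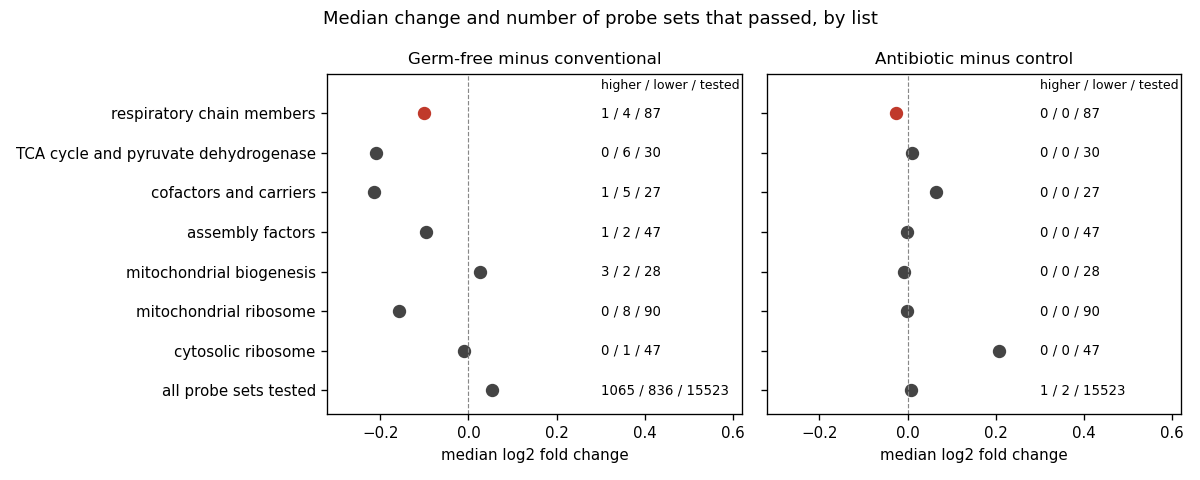
Median log2 fold change (x axis) of the respiratory chain members, related lists and all probe sets, with the number that passed as higher, lower and tested, for both comparisons. In germ-free livers the members lie at -0.10 and the TCA cycle and cofactor lists at -0.21. In antibiotic-treated livers the members and the related lists have 0 calls, and all probe sets have 1 higher and 2 lower.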

How the data were processed

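Liver RNA of 12 rats was measured on 1-colour Affymetrix arrays, 1 array per animal. The authors deposited linear signal intensities of 31099 probe sets, 1 value on each array. The submitters' processing notes name MAS5, with no version given in the sources used here. The table holds no detection calls. The mean signal after trimming 2% at each end was 100.0 to 100.1 on every array, so no further scaling was applied. Arrays of a group correlated at 0.974 to 0.985, and 0 arrays held identical values.

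Control probe sets (57) were set aside. Symbols come from the platform annotation and were matched to the GRCr8 gene table, which held all 97 members. Probe sets with a mean signal of at least 19.67 were tested. After addition of 16 and log2 transformation, limma 3.58.1 (R 4.3.3) was run with lmFit and an intensity trend in eBayes. All 12 arrays entered, with 1 mean per group, 8 residual and 5.96 prior degrees of freedom. Two-sided p-values were adjusted by Benjamini-Hochberg over all 15523 probe sets, with a threshold of 0.05. The fit was tested on simulated data. Precision is limited by the number of arrays: log2 fold changes had a median standard error of 0.152. Titles give each array an animal of its own, so p-values measure the spread between animals. Complexes and lists were described by counts and medians, with no test.

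Members and lists were chosen with earlier results of these data known. Named members were those that passed, the highest and lowest of each complex, nuclear catalytic subunits and paralog pairs. Up to 4 members of each other list were named by smallest p. Ndufb5, Ndufa9, Cox7b, Coq8a, Acta1 and the other genes outside that rule were chosen after their values were seen. Proteins were not analysed here. Alternatives were other offsets, filters and scalings, the 6 arrays of a comparison alone, other variance models, 1 probe set per gene, the actin ratio as covariate and leaving out each animal.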

Additional observations from a re-analysis of the deposited data

Results flagged for a closer look

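By the interaction term of limma, adjusted over all probe sets, 4 of 87 members passed for the difference between the comparisons. This is 4.6% of them, against 5.03% of all probe sets, so the members were not called more often than the rest. The calls of Atp5po, Ndufv3 and Ndufb11 were lost in 13, 13 and 14 of 23 alternatives. The log2 fold change in germ-free livers minus that in antibiotic-treated livers was 0.61 for Ndufa1, -0.67 for Atp5po, 0.60 for Ndufv3 and 0.51 for Ndufb11. Strain and experiment change with it and cannot be told apart from it.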

How the results depend on the processing

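The germ-free count of 5 members (5.75%, against 12.2% of all probe sets) changed with the setting. It was 3 with no filter (3.09% against 4.98%) and 12 with median centring (1 higher, 11 lower, 13.8% against 13.3%). On the 6 Sprague Dawley arrays alone it was 2 (2.3% against 8.35%), and with no variance trend 3 (3.45% against 11.62%). Array weights gave 9 (2 higher, 7 lower, 10.3% against 16.41%) and the actin covariate 1 (1.15% against 5.51%). The germ-free count ran from 2 to 7 when 1 animal was left out. It was 2 without germ-free animal 3 (2.3% against 6.48%) and 7 without conventional animal 6 (8.05% against 10.82%). Without germ-free animal 4, conventional animal 7 or 8 or control animal 1 it was 3 (3.45% against 8.26% to 10.95%). The antibiotic count was 0 under every alternative run. The count of 4 for the difference (4.6% against 5.03%) was 1 with no filter (1.03% against 1.6%) and 2 with median centring (2.3% against 4.77%). It was 1 with no variance trend (1.15% against 4.01%), 1 with the actin covariate (1.15% against 1.93%) and 1 to 5 when 1 animal was left out. Median centring moved the median of all probe sets in germ-free livers by -0.108. It gave medians of -0.22 for complex I, -0.17 for II, -0.29 for III, -0.11 for IV and -0.24 for V there. In the antibiotic comparison quantile normalization gave -0.097 for I, -0.080 for II, 0.0084 for III, -0.098 for IV and -0.078 for V. Median centring gave -0.11, -0.081, 0.048, -0.028 and -0.013 in that order. Complex III was 0.055 with 1 probe set per gene, and complex IV was -0.029 with no filter and -0.015 with the actin covariate. With 1 animal left out, germ-free medians ran from -0.16 to -0.073 for complex I, -0.26 to -0.095 for III and -0.19 to -0.065 for V, and antibiotic medians ran from -0.086 to -0.028 for complex I, 0.045 to 0.11 for III and -0.025 to 0.027 for IV. Of the values of complexes and counts under alternatives, 277 stayed close and 47 moved. Many of the 277 could not move. A complex median is the same with no variance trend, on the 6 arrays alone or without an animal of the other strain. The antibiotic count of 0 had little room to move, with 3 calls over all probe sets in the main fit. The tally is therefore no measure of stability. Of those of called members, 141 kept their call and 71 lost it, and none changed sign. Counts of the related lists under other scalings were added after seeing the data. No paired analysis was possible because the groups compared share no animal numbers.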
